A study of Mus musculus with 6 samples.

Results

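The nuclear genes described here encode the machinery that brings proteins into mitochondria, folds and degrades them there, shapes the inner membrane, and fuses or divides the organelle. They are 48 listed mouse genes, chosen by symbol, with earlier results of these data known. All 48 have a row among the 52740 gene rows of the deposited table of estimated counts. They fall into 20 import genes, 13 quality control genes, 3 cristae genes, 4 fusion genes and 8 fission genes. RNA came from C2C12 cells, an immortalised mouse myoblast line, kept in medium with 10% fetal bovine serum. The cells were transfected with an siRNA against Cox7a2l (siCOX7A2L) or a random control siRNA (siCTRL), and the design compares these 2 groups of 3 libraries. Every library is of 1 cell line, made from total RNA after removal of ribosomal RNA and with strand marking by dUTP. The labels do not state that the 3 replicates of a group were cultured separately, so the p-values below speak for the spread between these libraries, which may be technical.

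Most mitochondrial proteins are made in the cytosol and enter through the TOM complex of the outer membrane. The TIM23 complex and its motor then pull proteins with a cleavable presequence into the matrix, while small TIM chaperones hand carrier proteins to TIM22 for insertion into the inner membrane. Chaperones such as Hsp60 and mortalin fold what arrives, and the matrix and inner membrane proteases remove what fails. Mitofusins and Opa1 fuse mitochondria, the dynamin-related protein Dnm1l divides them, and the MICOS scaffold holds the junctions of the cristae, the folds that carry the respiratory chain. Cox7a2l, the gene targeted here, encodes an inner membrane protein that joins respiratory complexes into supercomplexes and is itself imported by this machinery.

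None of these genes passed the test. With edgeR's quasi-likelihood test, the replicate number as a block and Benjamini-Hochberg adjustment over all genes at 0.05, 0 of the 47 members that could be tested were called, beside 109 of 15022 tested genes, a background of 0.726%. The median log2 fold change over the 47 was 0.01, against 0.0077 over all tested genes, and single values ran from -0.37 for Timm8a1 (-0.65 to -0.17 over the alternatives) to 0.44 for Mfn1 (0.34 to 0.48). The median over the members was -0.0055, 0.10 and -0.050 without replicates 1, 2 and 3, so its sign depends on the libraries used. In size, without sign, the members had a median log2 fold change of 0.13 and all tested genes one of 0.21. The 95% interval of the fold change lay within 2-fold either way for 47 of 47 members, against 76.3% of all tested genes. It lay within 1.5-fold for 36 of the members, against 6638 of the 15022 tested genes. The width of the interval rests on the standard error, with a median of 0.139 for members and 0.17 for all tested genes. An unadjusted p under 0.05 was reached by 4 members (Mfn1 and Mief2 higher, Immt and Htra2 lower in siCOX7A2L), or 8.51%, whereas 17.7% of all tested genes reached it. DESeq2 with the same block and limma on log2 TPM also called 0 members.

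The 3 stretches before transcription starts printed here were chosen because the 2 genes of the first, the matrix chaperonins Hspd1 and Hspe1, are transcribed away from each other from it, and because Mfn1 and Immt had the smallest unadjusted p-values of all members. They are from RefSeq on GRCm38.p6, a different build from the one named in the submitters' processing notes, and are given 5′ to 3′ on the plus strand, at chr1:55087933-55088147, chr3:32529232-32529481 and chr6:71831070-71831319. Capitals mark the word CCGGAAG, the core of ETS factor sites such as those of GABP (also called NRF-2), which is known from several genes of mitochondrial proteins. In the first stretch the word occurs once on each strand, and the 2 matches overlap.
Hspe1-Hspd1: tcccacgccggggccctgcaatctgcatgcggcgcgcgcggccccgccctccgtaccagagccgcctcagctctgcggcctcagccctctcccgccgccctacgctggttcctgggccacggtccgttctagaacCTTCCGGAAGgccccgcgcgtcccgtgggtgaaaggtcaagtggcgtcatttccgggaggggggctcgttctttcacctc
Mfn1: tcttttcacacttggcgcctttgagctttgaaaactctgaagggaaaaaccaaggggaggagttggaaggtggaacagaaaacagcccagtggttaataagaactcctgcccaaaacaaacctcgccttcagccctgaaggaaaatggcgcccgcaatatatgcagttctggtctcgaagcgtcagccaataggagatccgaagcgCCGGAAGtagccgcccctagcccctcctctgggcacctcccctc
Immt: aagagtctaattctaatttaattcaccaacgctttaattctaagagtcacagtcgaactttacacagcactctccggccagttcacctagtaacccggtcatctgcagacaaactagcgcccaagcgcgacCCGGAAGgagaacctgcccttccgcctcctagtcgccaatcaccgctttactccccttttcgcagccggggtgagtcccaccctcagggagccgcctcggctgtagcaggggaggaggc
At least 1 window of 300 bases, from 250 before to 50 after the start, was found for 41 of the 48 members. Where a gene had more than 1 window, as Hspd1 with 2, a match in any of them counted. The ETS word was present on either strand in 17 of the 41, or 41.5%, against 20.1% of 10079 tested genes with a window and 9.93% of all 27025 genes with one. Hspd1 and Hspe1 are both among the 17, and both have the site printed above in a window, so the members are not independent. The NRF1 word, GCGCA and GCGC separated by 1 base, was present in 8 members or 19.5%, against 11.4% of tested genes. The E-box CACGTG was also present in 8 members, or 19.5%, against 11.5% of tested genes. A YY1 word was found for Timm50 alone (2.44%, against 1.87% of tested genes), and the words of the stress factor CHOP, TGATGCAAT and TGATGCAAC, for 0 members, against 0.367% of tested genes. At least 1 of these words was found for 27 of the 41 members, and both ETS and NRF1 words, possibly in different windows of the gene, for 3. These matches are letters in a window and do not show binding.

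Sequencing depth was 15095348, 14129822 and 9890218 estimated counts in siCOX7A2L replicates 1, 2 and 3, and 14896035, 14310241 and 17077826 in the siCTRL replicates. Cox7a2l had 6.72, 5.90 and 3.59 CPM (counts scaled to a common library size with TMM factors, as everywhere below) in siCOX7A2L libraries, against 58.0, 59.5 and 58.9 CPM in siCTRL libraries. Its log2 fold change was -3.44 with an edgeR adjusted p of 1.9e-05. Both replicate 3 libraries differ from the rest of their group. Protein genes of mitochondrial DNA took 1.61% of counts in siCOX7A2L replicate 3 and 2.78% in siCTRL replicate 3, against 0.589% to 0.616% in the other 4 libraries. The summed level of 6 myotube markers was 6.95 to 386 CPM in siCOX7A2L libraries and 8.78 to 141 CPM in siCTRL libraries, in each group with the highest value in replicate 3. The 6 myoblast markers summed to 1708 to 3454 CPM in siCOX7A2L libraries and 1869 to 2375 CPM in siCTRL libraries, and 4 fibroblast genes to 224 to 839 CPM and 291 to 775 CPM in the same groups. The 5 markers of leukocytes, endothelium, epithelium and adipocytes summed to under 1 CPM in every library, with Epcam at 0. In bulk RNA, fewer cells of a type and less RNA per cell cannot be told apart. Some of these markers also passed between the groups and were higher in siCOX7A2L in all 3 pairs, with edgeR log2 fold changes of 2.03 for the myotube gene Tnnt1 (adjusted p 0.00226), 1.55 for the myotube gene Actc1 (adjusted p 0.0263) and 1.72 for the fibroblast gene Dcn (adjusted p 0.0419). For Actc1, pair 2 rests on 6 counts in siCOX7A2L and 5 in siCTRL, so its sign in that pair is not settled. The median over the 5 tested myotube markers was 1.14, and within pair 2 it was -0.12. Called were 2 of these 5, 1 of 3 tested fibroblast genes and 0 of 6 myoblast markers, beside 0.726% of all tested genes. The tested myotube and fibroblast genes not called were Myog (0.90), Myh3 (1.14), Mymk (-0.035), Pdgfra (0.15) and Col1a1 (-0.047). The part of these marker differences in the members' values was not tested. Without replicate 3, again 0 members were called, Tomm20, Htra2 and Mfn1 had an unadjusted p under 0.05, and the log2 fold change was 0.48 for Mfn1, 0.21 for Mief2, -0.31 for Htra2, -0.29 for Tomm20 and -0.14 for Immt.

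Transcript levels of the members are compared per length, in deposited TPM (abundance per transcript length, scaled to the same sum in each library) averaged over the 6 libraries. The highest mean was that of Hspa9, mortalin, the Hsp70 of the matrix and of the import motor, at 142 TPM. It was followed by Hspd1, the chaperonin Hsp60, at 96.6 TPM, Fis1, an outer membrane adaptor of fission, at 89.6 TPM, and Hspe1, the lid of the Hsp60 barrel, at 85.2 TPM. Library values of these 4 overlapped, 66.9 to 171 TPM for Hspa9, 68.6 to 123 TPM for Hspd1, 69.3 to 104 TPM for Fis1 and 63.8 to 98.0 TPM for Hspe1, so their order is not settled. Hspa9 was the highest of these 4 in each library except siCOX7A2L replicate 3, where it was below the other 3. At the low end stood the protease Oma1 at 4.0 TPM and the fission factor Mtfp1 at 3.73 TPM. Gdap1, a fission factor best known from neurons, had 3 counts in siCOX7A2L replicate 3, 1 count in siCTRL replicate 1 and 0 in the other 4 libraries. It was not tested, and 3 counts, the limit that a count of 0 allows, equal 0.174 to 0.337 CPM in these libraries.

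**Figure D1:**
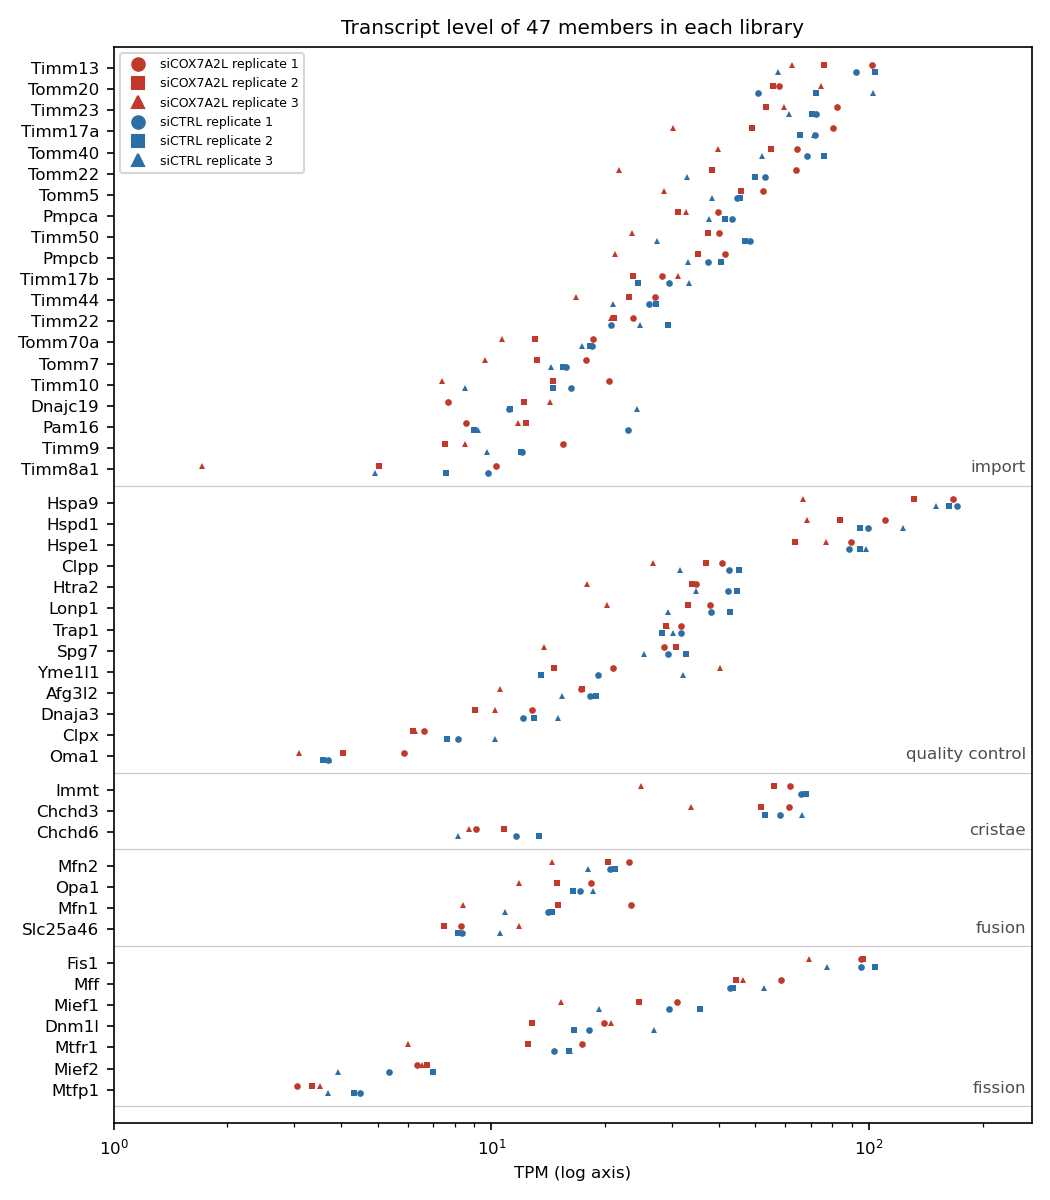
Deposited TPM of 47 members in the 6 libraries on a log axis, grouped by role and sorted within a role by the mean, with siCOX7A2L points above siCTRL points in each row. Levels spread from Hspa9 at 142 TPM on average to Mtfp1 at 3.73 TPM. siCOX7A2L replicate 3 often lies to the left, where 1 gene row without a symbol took 53.6% of TPM, against 36.9% to 46.3% in the other libraries, so TPM is used for levels and not for the comparison of groups.

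The 6 TOM genes, which form the entry gate of the outer membrane, gave 3 positive and 3 negative log2 fold changes with a median of 0.02. Tomm20, the receptor for presequences, had 69.1, 61.8 and 72.8 CPM in siCOX7A2L libraries and 77.0, 82.9 and 78.5 CPM in siCTRL libraries. All 3 siCOX7A2L values lie below all 3 siCTRL values. The log2 fold change of -0.23 (SE 0.128) had an edgeR adjusted p of 0.383. With limma on log2(TPM + 0.1), the log2 difference of Tomm20 was 0.023 after the median of all genes was subtracted. That median was -0.24. Tomm5, a small subunit that helps assemble the pore, had 30.2, 28.2 and 24.9 CPM in siCOX7A2L libraries and 25.6, 25.8 and 21.4 CPM in siCTRL libraries. It was higher in each pair of the same replicate number, the groups overlap, and the log2 fold change was 0.20 (SE 0.142, edgeR adjusted p 0.514). Tomm40, the pore itself, had a log2 fold change of -0.02 (SE 0.144), the co-receptor Tomm22 one of 0.14 (SE 0.137), the carrier receptor Tomm70a one of -0.10 (SE 0.127) and Tomm7 one of 0.06 (SE 0.157).

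Small TIM chaperones, which escort hydrophobic proteins across the intermembrane space, were low in CPM except Timm13, and their standard errors were among the widest of the members. Timm8a1 had 15.7, 8.36 and 3.93 CPM in siCOX7A2L libraries and 14.9, 11.5 and 7.19 CPM in siCTRL libraries. It was lowest in replicate 3 of both groups, the groups overlap widely, and the log2 fold change of -0.37 (SE 0.215) had an edgeR adjusted p of 0.409. Its Timm8a partner Timm13 had 77.3, 62.8 and 73.9 CPM in siCOX7A2L libraries and 66.5, 73.2 and 45.2 CPM in siCTRL libraries. The difference of Timm13 lies in pairs 1 and 3 and is turned round in pair 2, with a log2 fold change of 0.23 (SE 0.170, edgeR adjusted p 0.520). Timm10, which with Timm9 forms the main small TIM hexamer, had 12.5, 9.69 and 7.07 CPM in siCOX7A2L libraries and 10.2, 8.67 and 5.16 CPM in siCTRL libraries. It was higher in each pair, by 0.30 on the log2 scale in the fit (SE 0.190, edgeR adjusted p 0.453), with groups that overlap, while Timm9 stood at 0.01 (SE 0.209).

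At the inner membrane, Timm22, the channel for carrier proteins, had 36.1, 30.3 and 30.4 CPM in siCOX7A2L libraries and 33.9, 35.2 and 27.2 CPM in siCTRL libraries. Its groups lie over each other, with a log2 fold change of 0.01 (95% interval -0.31 to 0.33). The 7 genes of the TIM23 translocase and its motor had a median log2 fold change of 0.03, with 4 positive and 3 negative. Timm23, the channel for presequences, had 95.0, 68.0 and 84.8 CPM in siCOX7A2L libraries and 84.7, 81.7 and 67.2 CPM in siCTRL libraries, which overlap (log2 fold change 0.08, SE 0.143). Timm50, the receptor that hands presequences to the channel, had 50.3, 40.4 and 34.0 CPM in siCOX7A2L libraries and 53.1, 53.1 and 41.0 CPM in siCTRL libraries. It was lower in each pair, with groups that overlap and a log2 fold change of -0.25 (SE 0.137, edgeR adjusted p 0.378). Timm17b, a channel subunit with the paralog Timm17a, had 29.5, 32.1 and 61.0 CPM in siCOX7A2L libraries and 30.2, 31.9 and 35.0 CPM in siCTRL libraries. Only siCOX7A2L replicate 3 stands out, and the log2 differences within pairs were -0.04, 0.01 and 0.80. Pam16, a regulator of the motor, had the widest interval of the members, -0.80 to 0.87 around 0.03, with pair values of -1.14, 0.45 and 0.85. Timm17a stood at -0.18 (SE 0.137), Timm44, which anchors mortalin at the channel, at 0.14 (SE 0.138), and Dnajc19, a co-chaperone of the motor, at -0.16 (SE 0.194). The mitochondrial processing peptidase cuts off the presequence. Its subunit Pmpca had 120.5, 99.3 and 106 CPM in siCOX7A2L libraries and 123, 117 and 106 CPM in siCTRL libraries, and Pmpcb had 72.1, 67.6 and 47.6 CPM and 66.9, 69.4 and 49.6 CPM in the same groups. Both overlap throughout, with log2 fold changes of -0.09 (SE 0.121) and 0.01 (SE 0.126).

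**Figure D2:**
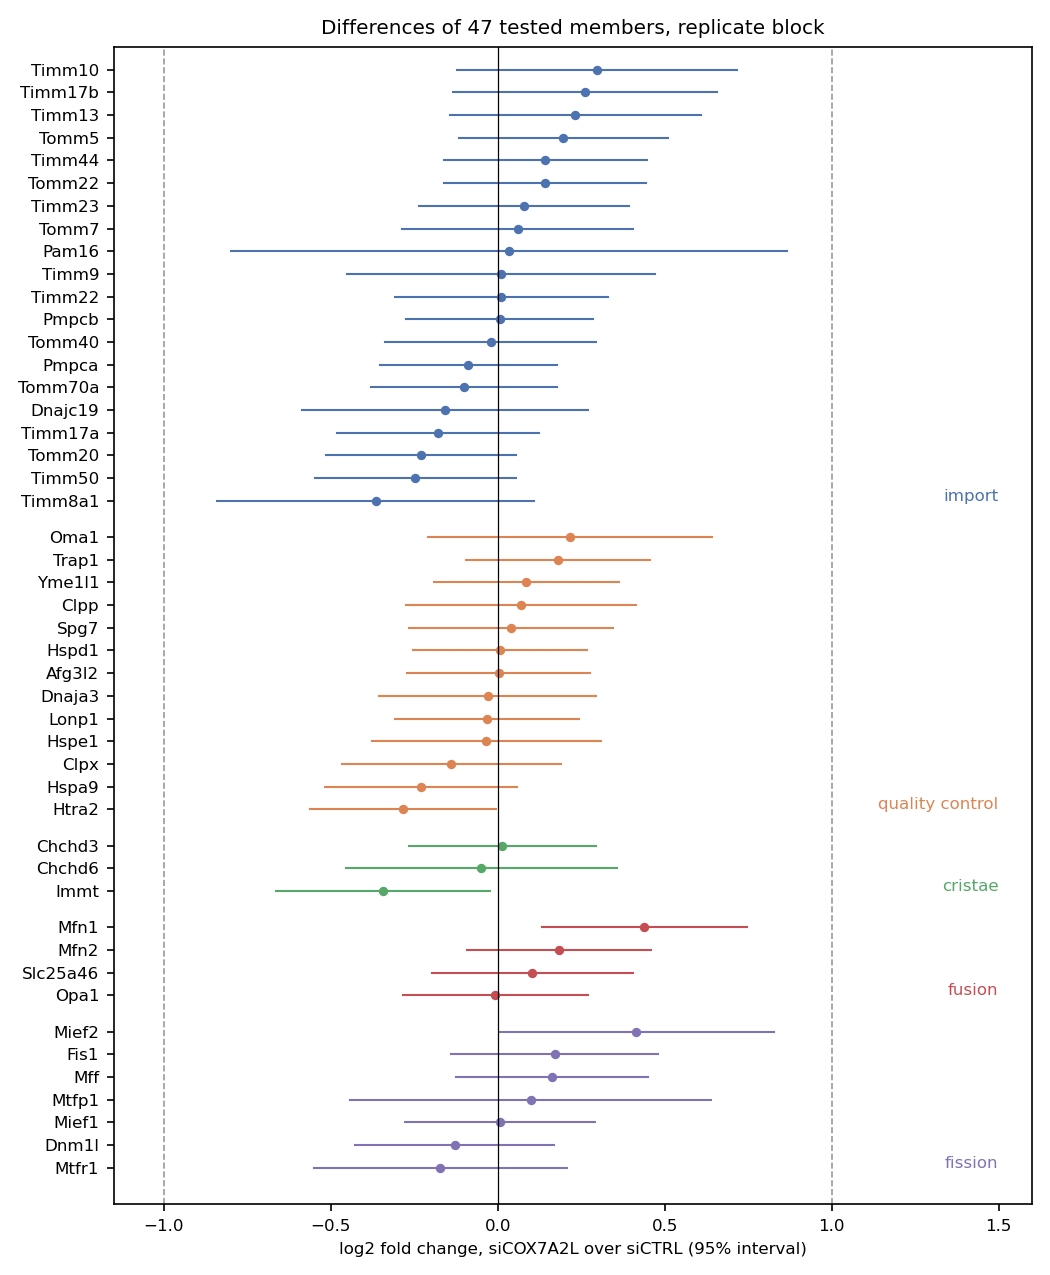
Log2 fold change of each tested member, siCOX7A2L over siCTRL, with its 95% interval from the edgeR fit, coloured by role, with dashed lines at 2-fold. Every interval stays inside the dashed lines, and those of Mfn1 (0.13 to 0.75), Mief2, Immt and Htra2 do not cross 0 before adjustment for the number of genes.

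The 5 matrix chaperones had a median log2 fold change of -0.03. Hspa9 had 553, 476 and 329.6 CPM in siCOX7A2L libraries and 553, 540.1 and 469 CPM in siCTRL libraries. The lowest value is siCOX7A2L replicate 3, replicate 1 is level between the groups, and the log2 fold change was -0.23 (SE 0.131, edgeR adjusted p 0.392). Trap1, the mitochondrial Hsp90, had 75.7, 76.7 and 78.9 CPM in siCOX7A2L libraries and 69.6, 61.5 and 73.7 CPM in siCTRL libraries. Its groups do not overlap, and the log2 fold change of 0.18 (SE 0.125) had an edgeR adjusted p of 0.491. The chaperonin pair lay near 0. Hspd1 had 294, 234 and 197 CPM in siCOX7A2L libraries and 263, 244 and 209 CPM in siCTRL libraries, and Hspe1, transcribed away from it from the stretch printed above, had 65.9, 50.8 and 85.9 CPM and 64.8, 68.9 and 69.3 CPM in the same groups. Their log2 fold changes were 0.01 (SE 0.119) and -0.03 (SE 0.155), and that of Dnaja3, an Hsp40 partner of mortalin, was -0.03 (SE 0.147). The reference names pseudogene copies of Hspd1, Hspe1, Hspa9 and Dnajc19, among which reads may have been divided, so these values are less certain.

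Proteases gave 5 positive and 3 negative values with a median log2 fold change of 0.02. Htra2 (ENSMUSG00000068329.13), a serine protease of the intermembrane space, had 58.1, 56.5 and 47.2 CPM in siCOX7A2L libraries and 69.4, 72.5 and 55.3 CPM in siCTRL libraries. It was lower in each pair although the groups overlap, with means of 53.9 ± 5.88 CPM in siCOX7A2L and 65.7 ± 9.16 CPM in siCTRL libraries (SD, n = 3 each). The log2 fold change was -0.28 (SE 0.126) with an edgeR adjusted p of 0.274. Oma1, the stress-activated protease that cuts Opa1, had 9.44, 9.41 and 7.86 CPM in siCOX7A2L libraries and 7.86, 7.57 and 7.54 CPM in siCTRL libraries. Its groups do not overlap, but by less than the digits printed, and the log2 fold change was 0.22 (SE 0.193, edgeR adjusted p 0.607). Clpp, the peptidase of the matrix ClpXP complex, had 38.8, 38.4 and 39.3 CPM in siCOX7A2L libraries and 40.5, 43.1 and 28.8 CPM in siCTRL libraries, which overlap (log2 fold change 0.07, SE 0.156). The remaining proteases were closer to 0 or overlapped. Lonp1, the Lon protease of the matrix, stood at -0.03 (SE 0.125), the unfoldase Clpx at -0.14 (SE 0.148), and the inner membrane AAA proteases Spg7, Afg3l2 and Yme1l1 at 0.04 (SE 0.139), 0.0025 (SE 0.124) and 0.09 (SE 0.126).

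Among the 3 cristae genes, Immt (ENSMUSG00000052337.16), which encodes mitofilin or Mic60, the core of MICOS, differed most. It had 147, 153 and 96.0 CPM in siCOX7A2L libraries and 163, 167 and 163 CPM in siCTRL libraries. Every siCOX7A2L value lies below every siCTRL value, and siCOX7A2L replicate 3 is far below the rest, with means of 132 ± 31.3 CPM in siCOX7A2L and 164 ± 2.27 CPM in siCTRL libraries (SD, n = 3 each). The log2 fold change was -0.34 (SE 0.145) with an edgeR adjusted p of 0.250, and -0.14 without replicate 3. The other MICOS subunits had values nearer 0, and the log2 TPM ratio of Chchd3 to Immt differed by 0.30 (SE 0.196) between siCOX7A2L and siCTRL libraries, with a two-sided exact permutation p of 0.2, where 0.1 is the smallest possible. Chchd6 (Mic25) had 10.8, 13.8 and 10.8 CPM in siCOX7A2L libraries and 13.8, 13.6 and 9.27 CPM in siCTRL libraries, with a log2 fold change of -0.05 (SE 0.184), and Chchd3 (Mic19) had one of 0.01 (SE 0.127).

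Of the 4 fusion genes, Mfn1 (ENSMUSG00000027668.14), a mitofusin of the outer membrane, had the lowest p of any member. It had 49.1, 39.5 and 32.3 CPM in siCOX7A2L libraries and 32.5, 30.8 and 25.3 CPM in siCTRL libraries. Within each replicate number the siCOX7A2L library was higher, by 0.59, 0.36 and 0.35 on the log2 scale, while over all libraries the groups overlap by a narrow margin. Means were 40.3 ± 8.38 CPM in siCOX7A2L and 29.5 ± 3.76 CPM in siCTRL libraries (SD, n = 3 each). The fold change was 1.36, with a 95% interval of 1.10 to 1.68 before adjustment for the number of genes, and an edgeR adjusted p of 0.139. The second mitofusin, Mfn2, had 105, 95.3 and 98.3 CPM in siCOX7A2L libraries and 93.3, 93.8 and 76.5 CPM in siCTRL libraries. Its groups do not overlap, and the log2 fold change of 0.18 (SE 0.125) had an edgeR adjusted p of 0.485. Opa1, the dynamin-related protein that fuses the inner membrane, stood at -0.0082 (SE 0.126), and Slc25a46, an outer membrane carrier-like protein, at 0.10 (SE 0.136).

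The 7 tested fission genes had a median log2 fold change of 0.10, with 5 positive and 2 negative. Mief2 (ENSMUSG00000018599.6), which encodes the Dnm1l receptor MiD49, had 13.8, 16.7 and 17.5 CPM in siCOX7A2L libraries and 11.9, 14.4 and 9.74 CPM in siCTRL libraries. It was higher in each pair, mostly in pair 3, with groups that overlap and means of 16.0 ± 1.98 CPM in siCOX7A2L and 12.02 ± 2.32 CPM in siCTRL libraries (SD, n = 3 each). The log2 fold change was 0.42 (SE 0.186, edgeR adjusted p 0.277), and 0.21 without replicate 3. Mff, the main receptor of Dnm1l, had 59.2, 47.05 and 56.4 CPM in siCOX7A2L libraries and 49.8, 44.9 and 50.1 CPM in siCTRL libraries. Its log2 fold change was 0.16 (SE 0.13), positive in each pair with groups that overlap. Fis1 had 71.9, 77.2 and 77.8 CPM in siCOX7A2L libraries and 71.2, 76.9 and 55.1 CPM in siCTRL libraries. Only siCTRL replicate 3 stands apart from the other values of Fis1, and the log2 fold change was 0.17 (SE 0.141). Dnm1l, the fission dynamin itself, stood at -0.13 (SE 0.135), Mief1 (MiD51) at 0.0066 (SE 0.129), and the fission regulators Mtfp1 at 0.10 (SE 0.245) and Mtfr1 at -0.17 (SE 0.171).

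**Figure D3:**
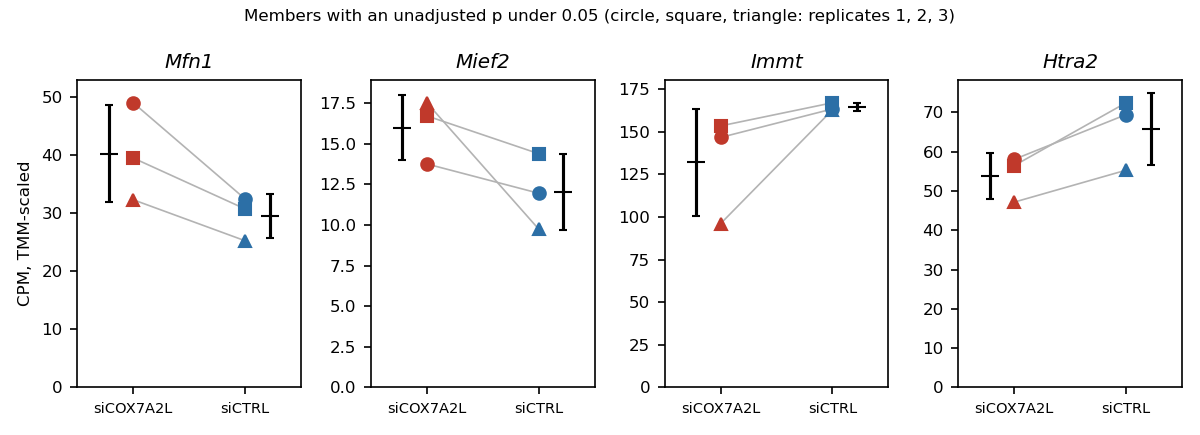
TMM-scaled CPM of the 4 members with an unadjusted p under 0.05 in siCOX7A2L (left) and siCTRL (right) libraries, with grey lines joining the same replicate number and bars for the mean and SD of 3. Mfn1 and Mief2 are higher and Immt and Htra2 lower in siCOX7A2L within each pair, and the groups fail to overlap for Immt alone.

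Groups did not overlap for 5 members (Tomm20 and Immt lower in siCOX7A2L, and Trap1, Oma1 and Mfn2 higher), which is 10.6% against a background of 15.6%. The same sign in all 3 pairs was found for 15 members, or 31.9%, against a background of 42%, 9 of them higher and 6 lower in siCOX7A2L. In each of these counts the share of members was below the share of all genes. When a term for replicate 3 replaced the pairing, edgeR called 1.31% of genes and again 0 members. In the authors' deposited table, 6.34% of 12742 genes with an adjusted p were under 0.05 and 0 of 47 members, the lowest being Mfn1 with a log2 fold change of 0.44 and an adjusted p of 0.0711.

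No role held a called gene. The median log2 fold change was 0.01 for import, 0.0025 for quality control, -0.05 for cristae, 0.14 for fusion and 0.10 for fission genes, with no test of these medians because the genes were listed with earlier results known. Summed over the 4 fusion genes, CPM were 277, 244 and 256 in siCOX7A2L libraries and 239, 236 and 226 in siCTRL libraries, which do not overlap. Summed over the 3 cristae genes, CPM were 223, 230.1 and 179 in siCOX7A2L libraries and 236, 245 and 249 in siCTRL libraries, which also do not overlap, in the other direction, and Immt makes up most of that sum. Within the fusion sum, mean CPM in siCOX7A2L against siCTRL libraries were 40.3 against 29.5 for Mfn1 and 99.4 against 87.8 for Mfn2. They were 42.8 against 39.4 for Slc25a46, whose groups overlap, and 76.5 against 76.8 for Opa1, which was level. The sums over import, quality control and fission genes overlapped. All 48 members together summed to 2900 to 3435 CPM in siCOX7A2L libraries and 2922 to 3320 CPM in siCTRL libraries.

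The pairs of equal replicate number did not move alike. Over the 47 members the median log2 difference was 0.09 in pair 1, -0.06 in pair 2 and 0.16 in pair 3, and 31, 15 and 31 members were higher in the siCOX7A2L library. For import genes the medians were 0.08, -0.22 and 0.19, so that pair 2 was low for this role while pairs 1 and 3 were high. Fusion genes had medians of 0.15, -0.0037 and 0.29, and fission genes 0.13, -0.03 and 0.17. Over all tested genes the medians were 0.0019, 0.0026 and 0.0068.

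**Figure D4:**
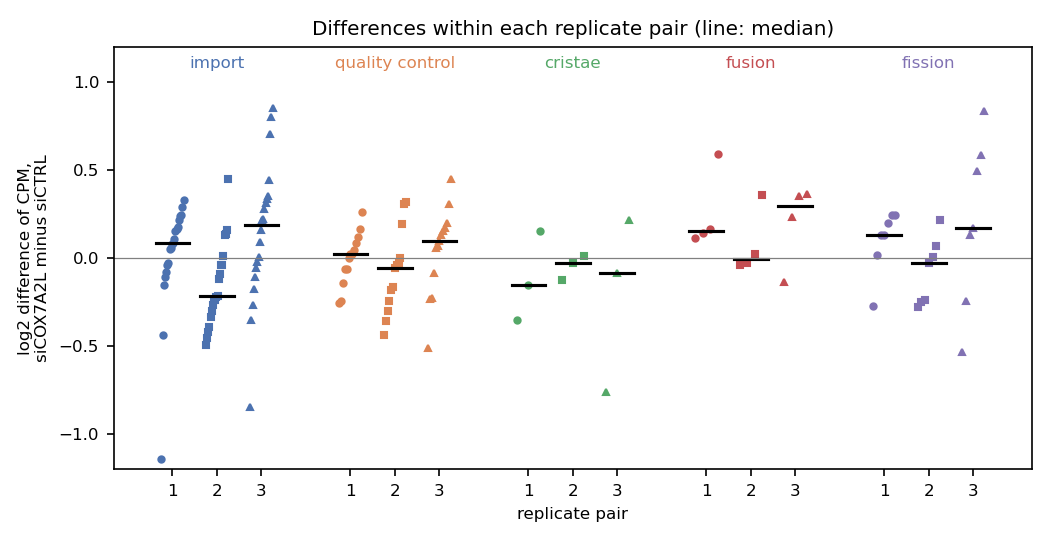
Log2 difference of CPM (prior count 2), siCOX7A2L minus siCTRL, within replicate pairs 1, 2 and 3, with 1 point per tested member, sorted by value, and a black line at the median, by role. Pair 2 lies lower than pairs 1 and 3 for import genes, at a median of -0.22 against 0.08 and 0.19.

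Replicate 3 was set against replicates 1 and 2 within each group, on log2(CPM + 0.5), as a description of single libraries. The members' median difference was -0.02 in siCOX7A2L and -0.26 in siCTRL, with 22 and 12 of 47 members positive. The 13 protein genes of mitochondrial DNA had medians of 2.78 in siCOX7A2L and 3.36 in siCTRL, and all 13 were positive in both groups. Over all tested genes the medians were -0.018 in siCOX7A2L and -0.010 in siCTRL. Dnajc19 was the member with the largest positive difference in both groups, at 1.06 in siCOX7A2L and 1.09 in siCTRL. Timm8a1 had the lowest, at -1.44 in siCOX7A2L and -0.82 in siCTRL.

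**Figure D5:**
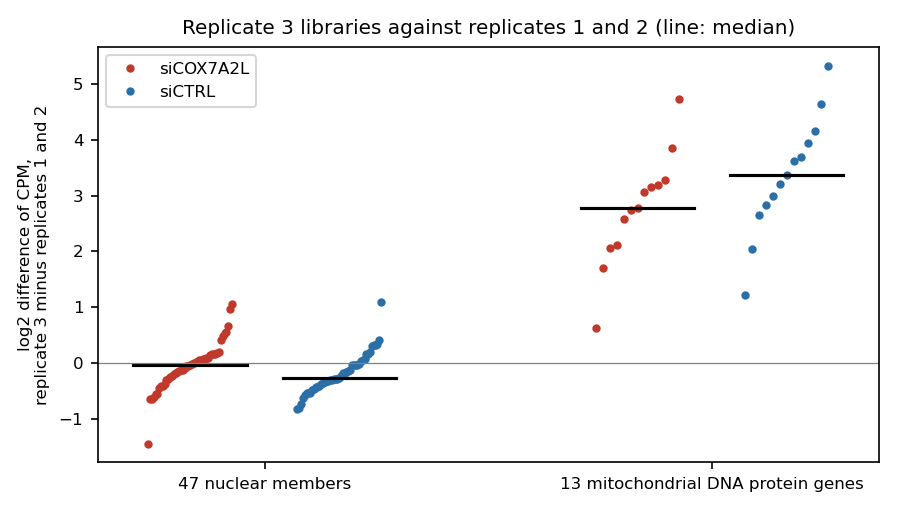
Log2 difference of CPM between replicate 3 and the mean of replicates 1 and 2 in siCOX7A2L (left) and siCTRL (right), for 47 members and for 13 protein genes of mitochondrial DNA, with 1 point per gene, sorted by value, and a line at the median. The members centre on -0.02 and -0.26 in the 2 groups, and every mitochondrial gene is above 0, with medians of 2.78 and 3.36.

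The 10 ratios between paralogs or partners were compared within libraries in TPM, which does not depend on scaling between libraries. TPM and CPM of a gene did not always move alike between libraries, so the ratios can differ with the measure. In siCOX7A2L replicates 1 and 3, Timm17a had 57.1 and 55.2 CPM but 80.2 and 30.3 TPM. Yme1l1 had 75.7 and 70.6 CPM but 20.9 and 40.3 TPM in the same libraries. The ratio of the receptors Mief1 to Mief2 was 4.87, 3.64 and 2.35 in siCOX7A2L libraries and 5.50, 5.11 and 4.93 in siCTRL libraries. The groups do not overlap, the log2 ratio differed by -0.58 (SE 0.310), and the two-sided exact permutation test gave p = 0.1, the smallest it can give for 3 against 3 libraries, and 1 after adjustment over the 10 ratios. Taken from CPM, the groups of the Mief1 to Mief2 ratio overlap. Mief1 and Mief2 had 112 and 13.8 CPM in siCOX7A2L replicate 1, and 101 and 14.4 CPM in siCTRL replicate 2. In TPM, the groups of the other 9 ratios overlapped. Mfn1 to Mfn2 stood at 1.01, 0.739 and 0.581 in siCOX7A2L libraries and 0.689, 0.682 and 0.605 in siCTRL libraries. Hspd1 to Hspe1 stood at 1.23, 1.32 and 0.891 in siCOX7A2L libraries and 1.12, 1.00 and 1.25 in siCTRL libraries, close to equal levels in both groups. Yme1l1 to Oma1, the 2 proteases that cut Opa1, stood at 3.57, 3.61 and 13.1 in siCOX7A2L libraries and 5.18, 3.79 and 8.66 in siCTRL libraries, highest in replicate 3 of each group in TPM. In CPM, Yme1l1 had 75.7, 63.4 and 70.6 in siCOX7A2L libraries and 71.4, 64.8 and 61.4 in siCTRL libraries, not highest in replicate 3 of either group. Taken from CPM, the ratio to Oma1 was lowest in replicate 3 among the siCTRL libraries.

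A wider list of 63 other genes of the same processes and of mitochondrial transport was read from the same fit. Of the 62 tested, 0 passed in edgeR and 0 in DESeq2, with a median log2 fold change of 0.03, and 9 had an unadjusted p under 0.05 in edgeR, of which 5 were higher and 4 lower in siCOX7A2L. This is 14.5% of the list, below the 17.7% of all tested genes. Groups did not overlap for 13 of the 62, a larger share than the 15.6% of all tested genes. The same sign in all 3 pairs was found for 24 of the 62, a smaller share than the 42% of all tested genes. Among other import genes the lowest p-values were those of Timm8b, a small TIM protein, and Samm50, which inserts barrel proteins into the outer membrane. Timm8b had 11.2, 11.3 and 14.3 CPM in siCOX7A2L libraries and 8.91, 7.5 and 7.25 CPM in siCTRL libraries, without overlap (log2 fold change 0.63, SE 0.197, edgeR adjusted p 0.138). Samm50 had 115, 104 and 107 CPM in siCOX7A2L libraries and 89.9, 86.0 and 74.6 CPM in siCTRL libraries, also without overlap (log2 fold change 0.38, SE 0.121, edgeR adjusted p 0.141). Both were higher in each pair, and neither passed over all genes. Without replicate 2, 5 genes of the wider list were called in edgeR (Romo1, Oxa1l, Atf5, Mul1 and Bnip3l), and without replicate 1 or 3, 0 were. These 5 are 8.06% of the list, beside 7.87% of all genes tested without replicate 2. Among other quality control genes, the mitophagy receptors Bnip3 and Bnip3l had the lowest p-values. Bnip3 had 30.2, 30.8 and 14.3 CPM in siCOX7A2L libraries and 41.5, 37.8 and 19.6 CPM in siCTRL libraries (log2 fold change -0.40, SE 0.142, edgeR adjusted p 0.178). Bnip3l had 55.1, 82.6 and 53.3 CPM in siCOX7A2L libraries and 83.3, 84.5 and 77.4 CPM in siCTRL libraries (log2 fold change -0.39, SE 0.145, edgeR adjusted p 0.199). Both were lower in each pair with groups that overlap. Of other cristae genes, Dnajc11 stood at 0.24 (SE 0.134) and Tmem11 at 0.28 (SE 0.169), and of other fusion and fission genes, the formin Inf2 stood at -0.16 (SE 0.117) and Miga2, an outer membrane fusion factor, at 0.17 (SE 0.137).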

How the data were processed

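The authors deposited estimated counts per gene, TPM values, and a result table holding, per the file headers, scaled counts (a normalised signal), log2 fold changes, their standard errors, a test statistic (a score) and p-values with adjusted p-values. Salmon 0.13.1, Trim Galore 0.6.4, DESeq2 1.30.1 and the build mm39 are listed, without a role, per the submitters' processing notes. Members were matched by gene identifier without its version, through GENCODE M21 names and RefSeq synonyms. The members and gene lists were chosen with earlier results of these data known.

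Rounded to whole numbers, the estimated counts were tested in R 4.3.3 with edgeR 4.0.16 (TMM, default expression filter by group, robust quasi-likelihood fit, replicate number as a block). The standard error is the log2 fold change over the root of the F statistic. Steps were tested on simulated data with known changes. Replicate numbers were set to pair libraries by the given design, and an earlier analysis of these data had found replicate 3 of both groups apart. Deviations from group means of equal numbers correlated at 0.53, 0.45 and 0.67. Replicates 1 and 2 also correlated across numbers (0.43 and 0.44), so these values cannot show that numbers 1 and 2 are pairs. Depth ran from 9890218 to 17077826 estimated counts and limits the low genes most. The closest replicates, siCTRL 1 and 2, differed by more than counting noise (median chi-square 0.834 against 0.455), and both were kept. Named are all members, with values per library for the 2 lowest p-values and the highest TPM of each of 10 member lists, and the 2 lowest p-values of each wider list. Alternatives used limma 3.58.1 on log2(TPM + 0.5) or log2(TPM + 0.1), DESeq2 1.42.0, other scalings, filters and designs, and left out each replicate number. The 1 gene row without a symbol took 36.9% to 53.6% of TPM. Protein sequences were not used here.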

Additional observations from a re-analysis of the deposited data

How the results depend on the processing

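In all 11 alternatives 0 members were called, and the lowest adjusted p was 0.0926, for Immt without replicate 2. Calls over all genes, 109 with the replicate block, depended on the setting. They numbered 2 with no replicate block, 197 with a term for replicate 3, 58 with library size alone, 1257 with no filter on low counts, 507 with DESeq2 and the replicate block, 14 with limma on log2(TPM + 0.5), 9 with log2(TPM + 0.1), and 373, 1210 and 51 without replicates 1, 2 and 3. Of the wider list, 2 genes (Romo1 and Oxa1l) were called with no filter and 5 (also Atf5, Mul1 and Bnip3l) without replicate 2. The 2 are 3.17% of the list, below the 4.7% of 26739 genes tested with no filter. The 5 are 8.06% of the list, beside 7.87% of all genes tested without replicate 2. The median log2 fold change over the members was -0.050 to 0.10 with 1 replicate number left out. That of quality control genes was -0.092 with limma on log2(TPM + 0.5), and -0.093 to 0.067 with 1 replicate number left out, and that of cristae genes -0.14 to -0.059 in that case. In TPM the median of all genes lay at -0.21 and -0.24 for the 2 pseudocounts. TPM values here, and the changes of sign given below for TPM, are relative to it. The adjusted p-values of these 2 limma settings belong to the values before this median was subtracted. Why these settings differ was not tested.

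Mfn1 stayed between 0.34 and 0.48 on the log2 scale (adjusted p 0.101 to 0.827), Immt between -0.46 and -0.14 (0.0926 to 0.832), Htra2 between -0.33 and -0.25 (0.183 to 0.823) and Mief2 between 0.21 and 0.54 (0.244 to 0.810). Timm8a1 lay between -0.65 without replicate 1 and -0.17 without replicate 3. Members changed sign in 9 of the alternatives, among them Tomm20, Tomm22, Timm13 and Timm17b, whose values with the replicate block exceed their standard errors, and 0 did so with both values larger than their standard errors. Their log2 fold changes were Pam16 -0.060 with no replicate block and -0.044 with the term for replicate 3. With library size alone they were Timm9 -0.031, Timm22 -0.034, Pam16 -0.0084, Pmpcb -0.039, Hspd1 -0.039, Spg7 -0.0062, Afg3l2 -0.042, Chchd3 -0.032 and Mief1 -0.038. With no filter they were Pmpcb -0.0042, Hspd1 -0.0032, Afg3l2 -0.0071 and Mief1 -0.0031. On log2(TPM + 0.5) they were Tomm22 -0.028, Pmpcb -0.020, Hspd1 -0.082, Spg7 -0.12, Afg3l2 -0.035, Chchd3 -0.10, Chchd6 0.024, Dnm1l 0.011, Mief1 -0.057 and Mtfp1 -0.087, and on log2(TPM + 0.1) Tomm20 0.023, Hspd1 -0.049, Spg7 -0.094, Afg3l2 -0.0085, Chchd3 -0.070, Chchd6 0.052, Opa1 0.012, Dnm1l 0.040, Mief1 -0.027 and Mtfp1 -0.084. With 1 replicate number left out the ranges were Tomm40 -0.21 to 0.11, Tomm70a -0.18 to 0.0078, Tomm7 -0.0055 to 0.13, Timm9 -0.12 to 0.26, Timm13 -0.0030 to 0.45, Timm22 -0.065 to 0.12, Timm17b -0.016 to 0.41, Timm23 -0.050 to 0.24, Pam16 -0.39 to 0.66, Pmpcb -0.050 to 0.033, Hspd1 -0.075 to 0.050, Hspe1 -0.21 to 0.16, Dnaja3 -0.13 to 0.093, Lonp1 -0.11 to 0.067, Clpp -0.12 to 0.18, Spg7 -0.049 to 0.18, Afg3l2 -0.033 to 0.034, Chchd3 -0.059 to 0.061, Chchd6 -0.17 to 0.11, Opa1 -0.087 to 0.054, Mief1 -0.060 to 0.12 and Mtfp1 -0.16 to 0.28. For log2 ratios they were Hspd1/Hspe1 -0.18 to 0.26, Spg7/Afg3l2 -0.15 to 0.040, Timm9/Timm10 -0.33 to 0.019, Pmpca/Pmpcb -0.24 to 0.11 and Yme1l1/Oma1 -0.30 to 0.26, and in CPM Spg7/Afg3l2 0.036. Counts were low for Gdap1, Mtfp1, Pam16, Oma1 and the small TIM genes other than Timm13.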

Other observations

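Genes that move mitochondria along microtubules were part of the wider list. Trak2, an adaptor that links mitochondria to motor proteins, had 81.4, 78.7 and 97.4 CPM in siCOX7A2L libraries and 63.2, 68.0 and 73.7 CPM in siCTRL libraries, which do not overlap. Its log2 fold change was 0.33 (SE 0.123) with an edgeR adjusted p of 0.203, positive in each of the 3 pairs. Trak1, its paralog, had 138, 124 and 260.2 CPM in siCOX7A2L libraries and 125, 133 and 173 CPM in siCTRL libraries, highest in replicate 3 of both groups, with a log2 fold change of 0.20 (SE 0.144, edgeR adjusted p 0.50). The median over the 5 transport genes was 0.08, and 0 of 5 were called in edgeR, with Trak2 the 1 gene under an unadjusted p of 0.05, and 0 in DESeq2.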
